A study of Mus musculus with 12 samples.

Results

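The lumbar ventral spinal cord of *Isl2* knockout (KO) mouse embryos was compared with that of heterozygous embryos at E12.5, over every gene with a mean of at least 1 TPM, a length-corrected share of the transcripts in a library. All 6 lumbar libraries of the 12 in the series entered the comparison, 3 labelled *Isl2* +/- (Het) and 3 labelled *Isl2* -/- (KO). Each library held total RNA from ventral cord trimmed around the *Hb9::GFP* reporter, a transgene that labels motor neurons (MNs) and that all embryos therefore carried. The Het embryos lacked one copy of *Isl2* as well, and no wild-type library entered the comparison. In the null allele of the study, exons were replaced with a neomycin resistance cassette in every cell of the embryo, so the loss was not restricted to MNs. The dissected tissue held interneurons, progenitors and blood besides MNs. In such bulk tissue, fewer cells of a type and less RNA per cell cannot be told apart. Of 45777 genes listed, 14763 passed the level threshold, of which 12410 were protein-coding, 741 were small RNA genes and 1612 were other noncoding genes or pseudogenes.

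*Isl2* encodes a LIM-homeodomain transcription factor that spinal MNs switch on soon after they leave the cell cycle. MNs that innervate the same limb muscle settle together as motor pools within the lateral motor column (LMC), and each pool is marked by its own set of transcription factors, among them the ETS factor *Etv4*. At limb levels *Hox* genes set which pools form, and trophic factors from the limb help to switch on pool-specific genes.

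The labels were first compared with the data. *Isl2* (chromosome 9, 55538677 to 55547667, plus strand, GRCm38) stood at 9.76, 8.01, and 8.95 TPM in the Het libraries and at 6.95, 6.20, and 7.84 TPM in the KO libraries. All values per library are TPM after rescaling by median-of-ratios size factors. The 3 KO libraries lay below the 3 Het libraries, with a log2 fold change of −0.35 (SE 0.13, unadjusted p = 0.029 in limma, adjusted p = 0.999), which did not reach the fold threshold given below. Read from the coverage column in place of TPM, the log2 fold change was −0.72. A gene-level value does not resolve exons, so any transcript from the remaining part of the mutated gene would be counted with it. Whether there was such transcript was not tested, and the value alone does not show loss of the protein. MN markers were present in every library, with *Mnx1*, the gene behind the Hb9 reporter, between 35.7 and 63.6 TPM and *Chat*, the enzyme that makes acetylcholine, between 4.85 and 9.97 TPM. The lumbar *Hox* genes *Hoxc10* (24.7 to 46.5 TPM) and *Hoxd10* (118 to 204 TPM) were present in all 6 libraries.

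The libraries were alike in depth, between 5.21 and 6.64 Gb of aligned bases with 22983 to 24191 genes above 0, and pairs of lumbar libraries correlated at 0.975 to 0.985 over log2 values. Between 30.9% and 38.2% of TPM came from 5 abundant small RNAs. *Xist* and Y-linked genes showed that the sexes were not balanced, with 2 female and 1 male library among the Het and 1 female and 2 male among the KO. A fit with embryo sex as a term was added after the data were seen.

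A gene was called lower or higher where its log2 fold change (KO minus Het, on log2 of TPM + 0.1) passed 0.5 in size and its unadjusted p in limma was under 0.05, the threshold of the study. By this rule 95 genes were lower (0.644% of those tested) and 110 higher (0.745%) in the *Isl2* KO. No gene passed an adjusted p of 0.05, while 711 genes (4.82%) had an unadjusted p under 0.05, and the gene of smallest adjusted p was *Uts2b* at 0.0634. With all 12 libraries in one fit, *Uts2b* (adjusted p = 0.000319 in limma) and *Anxa2* (adjusted p = 0.0263) passed. The exact permutation test of 3 against 3 libraries cannot fall below p = 0.1 for a single gene. Among protein-coding genes, 51 were lower (0.411%) and 52 higher (0.419%), and the KO and Het ranges did not overlap for 46 and 41 of them, against 9.81% of all protein-coding genes tested. The calls were made on the same libraries, so their larger share without overlap follows from the choice. Among small RNA genes 25 were lower (3.37%) and 40 higher (5.4%), and their log2 fold changes had an SD of 0.546 against 0.181 for protein-coding genes. Among the other noncoding genes and pseudogenes 19 were lower (1.18%) and 18 higher (1.12%). The counts moved with single libraries. Over all genes, 144 were lower without Het replicate 3, and 177, 204, and 220 were higher without Het replicate 2, KO replicate 1 and KO replicate 2. Small RNA genes called higher numbered 64 without KO replicate 2. Protein-coding genes called lower numbered 85 without Het replicate 3 and 80 without KO replicate 1, and those called higher numbered 108 without Het replicate 2, 79 without Het replicate 3, 152 without KO replicate 1, and 99 without KO replicate 2. Of the genes called in all 6 libraries, 20 of the 51 lower and 12 of the 52 higher kept their call without each library in turn. Those lower were *A730046J19Rik*, *A830018L16Rik*, *Barx2*, *Chodl*, *Etv4*, *Fam135b*, *Fam184b*, *Hoxc11*, *Hrk*, *Kcnab1*, *Khk*, *Megf11*, *Ntf3*, *Prph*, *Scg5*, *Sema3e*, *Slc35f2*, *Stx3*, *Tmem100* and *Uts2b*. Those higher were *Agmo*, *Cartpt*, *Cnksr3*, *Depdc1b*, *Fam72a*, *Gm21992*, *H2ac18*, *H2ac19*, *Mme*, *Ptf1a*, *Septin1* and *Stk33*. Every other protein-coding gene called below lost its call without at least 1 library. With embryo sex as a term 101 protein-coding genes were lower, among them 44 of the 51, and 65 were higher, among them 34 of the 52. Of the protein-coding genes named below, *Anxa2*, *Tmsb15b1*, *Far2*, *Gstm4* and *Calml4* were no longer called lower with that term, and *Espl1*, *Iqgap3*, *Cdca2*, *H2ac22*, *H2bc9*, *H2bc1*, *H4f16*, *Gli3*, *Tssk6*, *Fbxl22* and *Mt1* were no longer called higher.

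**Figure D1:**
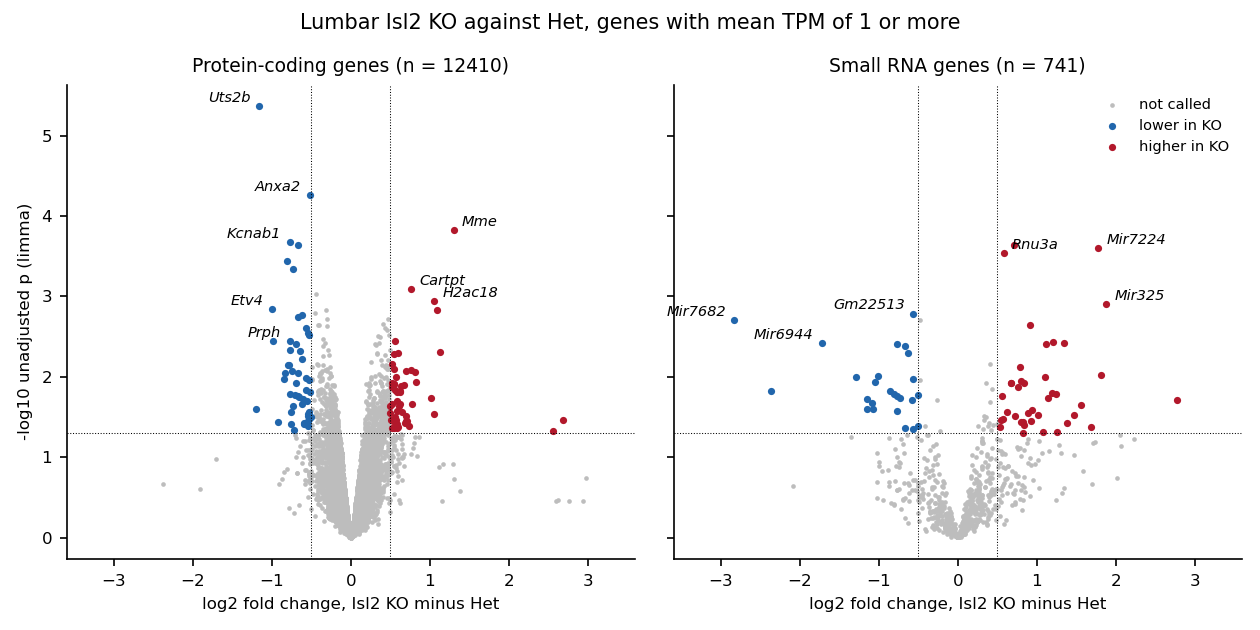
Log2 fold change (horizontal axis, KO minus Het) against −log10 of the unadjusted limma p (vertical axis) for 12410 protein-coding genes (left) and 741 small RNA genes (right), with 1 point per gene and dotted lines at the thresholds of 0.5 and 0.05. *Uts2b* stands apart from the other protein-coding genes, and the small RNA genes spread further to both sides.

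*Uts2b* was the lower gene of smallest p. It encodes the precursor of a urotensin II-related peptide. It stood at 20.6, 20.5, and 21.5 TPM in the Het and at 8.85, 8.4, and 10.6 TPM in the KO. The groups were far apart relative to their spread, with KO at 44.6% of the Het mean and a log2 fold change of −1.16 (SE 0.11, 95% interval −1.41 to −0.91). Its paralog *Uts2*, the urotensin 2 precursor, was lower too, at 3.16, 3.13, and 4.24 TPM against 2.75, 2.3, and 1.73 TPM (log2 fold change −0.62, SE 0.22). Of 29 tested genes on the list of neuropeptide precursors and processing factors, which did not include *Uts2*, 2 were lower and 1 was higher (against 0.411% and 0.419% of protein-coding genes), and the median was −0.14 against −0.01 over all genes. The median was −0.22 without Het replicate 3 and −0.06 without KO replicate 3, and −0.01 at the brachial level. Beside *Uts2b* the lower one was *Scg5*, the chaperone 7B2 of the prohormone convertase PC2, at 195, 208, and 205 TPM in the Het and 95.3, 182, and 102 TPM in the KO (−0.74, SE 0.22). KO replicate 2 stood near the Het libraries and the other KO libraries well below them. *Scg5* also varied widely at the brachial level, between 114 and 239 TPM in the Het and between 103 and 168 TPM in the KO. The higher one was *Cartpt*, the precursor of the CART peptides, at 56.8, 49.96, and 55.4 TPM against 105, 104, and 71.0 TPM (0.77, SE 0.15). Both *Scg5* and *Cartpt* kept their calls without each library in turn.

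Among 27 tested transcription factors and other genes that mark MN columns and pools, 2 were lower (against 0.411% of protein-coding genes), none was higher, and the median log2 fold change was −0.05. The median ranged from −0.12 to 0.03 without each library in turn. *Etv4*, which directs the position and branching of certain LMC pools, stood at 10.1, 8.33, and 14.7 TPM in the Het and at 4.51, 6.07, and 5.48 TPM in the KO (log2 fold change −1.0, SE 0.21, 95% interval −1.49 to −0.51). All KO values lay below the lowest Het value, and the Het values themselves varied. *Barx2*, a homeobox gene, stood at 9.67, 6.28, and 5.89 TPM against 4.25, 3.97, and 2.63 TPM (−0.98, SE 0.24). The related ETS genes *Etv1* (0.00, SE 0.17) and *Etv5* (−0.19, SE 0.27) were not called. General MN markers were not called either. *Mnx1* (−0.01, SE 0.22) and *Lhx3* (−0.02, SE 0.27) overlapped between the groups, as did *Isl1*, with 61.8, 56.8, and 66.3 TPM against 42.9, 57.5, and 49.4 TPM (−0.31, SE 0.11). *Foxp1*, the marker of LMC neurons, gave −0.25 (SE 0.12). KO replicate 3 had the lowest value of the 6 libraries for *Chat*, *Mnx1* and *Lhx3*, and the differences of *Mnx1* and *Lhx3* changed sign when single libraries were left out.

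The 5 tested genes of cholinergic transmission were all negative, against 53.9% of protein-coding genes, with a median of −0.27, and none was called. The median was −0.11 without Het replicate 1 and −0.40 without Het replicate 2, and at the brachial level it was 0.06. *Slc5a7*, the choline transporter, stood at 15.6, 12.52, and 15 TPM in the Het and at 12.1, 10.0, and 11.8 TPM in the KO (−0.35, SE 0.12), without overlap but short of the fold threshold. The summed level of all 6 listed genes, tested or not, was 92.4, 66.1, and 74.3 TPM in the Het and 70.6, 77.5, and 52.5 TPM in the KO, so these sums overlapped.

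Genes that mark one lateral LMC cluster (LMCl.2) in the single-cell data used by the study were examined as a list. Of 28 tested, 5 were lower (*Kcnab1*, *Etv4*, *C1ql3*, *Barx2* and *A830018L16Rik*) and none was higher, 8 had all KO libraries below all Het libraries, and the median was −0.15. The background among protein-coding genes was 0.411% lower and 5.62% with KO below Het. *Kcnab1*, a β subunit of voltage-gated potassium channels, stood at 16.1, 12.6, and 13.6 TPM against 7.69, 8.96, and 7.96 TPM (−0.77, SE 0.12), and its log2 fold change was −0.48 when read from coverage, which is below the threshold. *C1ql3*, a secreted C1q-family protein of synapses, stood at 18.2, 15.9, and 14.5 TPM against 12.9, 10.5, and 10.3 TPM (−0.53, SE 0.13). Its call was lost without Het replicate 1, KO replicate 2 or KO replicate 3. The remaining 23 members were not called. *Kcnip1*, another potassium channel partner, gave −0.42 (SE 0.10), *Nkx6-2* −0.32, and *Lhx1* 0.32. A set of 22 genes, which is not every gene the study names for the lumbar cord, was drawn from its account. Of the 20 tested 16 were lower, but these 16 were chosen on the same libraries and the count is no independent evidence. Of the 4 not called, *Gfra1* gave −0.24 (SE 0.09) and *Ret* −0.17 (SE 0.17), and the study itself reported both as unchanged in its RNA-seq. *Epha3* gave 0.19 (SE 0.15) and *Sema5a* 0.01 (SE 0.20). The study took *Epha3* and *Sema5a* from the single-cell data and reported their decrease in the KO from in situ hybridization of one motor pool.

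**Figure D2:**
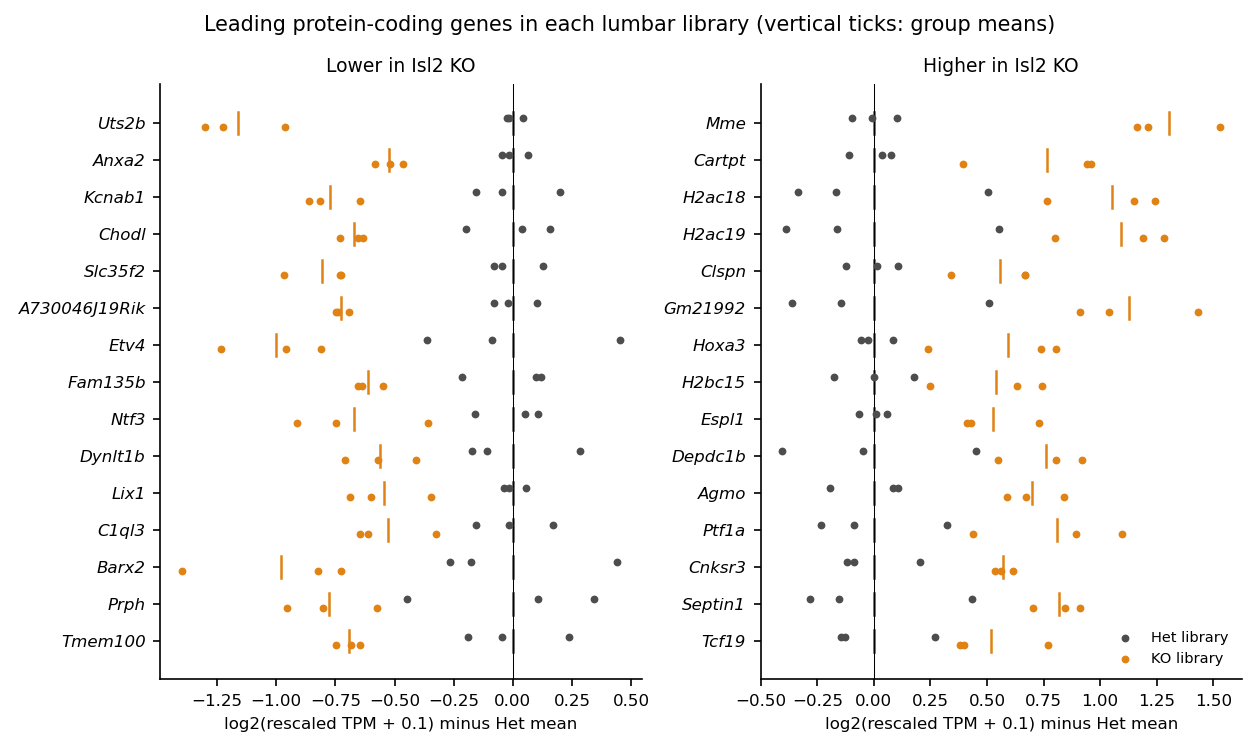
Each lumbar library's log2(rescaled TPM + 0.1) minus the Het mean (horizontal axis) for the 15 lower (left) and 15 higher (right) protein-coding genes of smallest p whose groups do not overlap. Grey points are Het and orange points KO libraries, vertical ticks are group means, and the groups were chosen not to overlap, so only the size and the scatter are informative.

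*Ntf3*, the neurotrophin NT-3, stood at 25.3, 21.8, and 26.2 TPM in the Het and at 12.9, 19, and 14.5 TPM in the KO (−0.67, SE 0.15), and was the 1 called gene of 20 tested trophic factors and receptors (median −0.12), against 0.411% of all protein-coding genes called lower. The median was −0.06 without Het replicate 1 and −0.19 without Het replicate 2, and at the brachial level it was 0.12. *Met*, the receptor of hepatocyte growth factor, was at 20.3 to 23.0 TPM in the Het and at 16.6 to 17.8 TPM in the KO, without overlap (−0.30, SE 0.09, not called). Of 21 genes of the apoptosis pathway 2 were lower, against 0.411% of protein-coding genes. *Hrk*, a BH3-only protein that promotes neuronal death, stood at 6.26, 5.96, and 5.74 TPM against 4.48, 2.57, and 3.61 TPM (−0.77, SE 0.20). *Moap1*, a modulator of Bax, gave −0.56 (SE 0.17) and lost its call without Het replicate 2 or KO replicate 1. The receptors for peptides and amines held 2 lower genes of 16 tested (against 0.411% of protein-coding genes), the orphan receptors *Gpr149* (−0.70, SE 0.22) and *Gpr26* (−0.50, SE 0.19). *Gpr149* lost its call without Het replicate 1, and *Gpr26* without any 1 of the Het libraries or KO replicate 2.

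In the neuronal cytoskeleton list 18 of 20 tested genes were negative, against 53.9% of protein-coding genes, and 4 were lower (against 0.411%), with a median of −0.16. Without KO replicate 3 the median was −0.10. *Prph*, the intermediate filament peripherin of neurons that send axons out of the cord, stood at 72.6, 61.6, and 41.9 TPM against 38.5, 29.5, and 32.7 TPM (−0.78, SE 0.19). The lowest Het library was close to the highest KO library. *Anxa2*, a calcium-dependent membrane and actin-binding protein, had little spread, at 83.7, 77.4, and 79.2 TPM against 53.5, 57.9, and 55.8 TPM (−0.52, SE 0.07). It lies just past the fold threshold and fell short of it with embryo sex as a term (−0.496) and without Het replicate 1 (−0.49) or KO replicate 1 (−0.49). The thymosin genes *Tmsb15b1* (−0.55) and *Tmsb15b2* (−0.55) were lower as well, and being near-identical paralogs they may share reads. *Tmsb15b1* lost its call with embryo sex as a term and without Het replicate 1, Het replicate 2, KO replicate 1 or KO replicate 3, and *Tmsb15b2* without Het replicate 2 or KO replicate 2. Of the 4 lower genes *Prph* alone kept its call without each library. *Nefm*, the medium neurofilament, stood at 121, 105, and 107 TPM against 94.7, 81.7, and 84.2 TPM (−0.35, SE 0.09, not called). The summed level of the list was 8369, 7791, and 8597 TPM in the Het and 7480, 7642, and 6824 TPM in the KO. At the brachial level the list's median was −0.22.

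Over all protein-coding genes, 53.9% were negative and 0.411% were called lower. Of 74 tested voltage-gated channel genes 55 were negative (median −0.10) and *Kcnab1* alone was called, a share near that background. Of 36 ionotropic transmitter receptor genes 28 were negative (median −0.15) and *Gabra5*, a GABA-A receptor subunit, was the only one called, at 2.99, 3.12, and 2.96 TPM against 1.82, 1.42, and 2.49 TPM (−0.67, SE 0.22). Without KO replicate 2 these medians were −0.02 and −0.05, and at the brachial level they were 0.16 and 0.13. Among 30 synapse organisers and release genes 3 were lower, against 0.411% of protein-coding genes. All KO libraries lay below all Het libraries in 4 of the 30 and above them in 3, against 5.62% and 4.2% of protein-coding genes. *Chodl*, a C-type lectin-like membrane protein of fast-type MNs, stood at 23.0, 21.1, and 17.95 TPM against 13.03, 12.4, and 13.2 TPM (−0.67, SE 0.11), *Megf11* gave −0.67 (SE 0.20), and *C1ql3* was given above. Of 77 axon guidance genes *Sema3e*, a secreted semaphorin that is expressed by particular motor pools, was the only one called, a share near the 0.411% of protein-coding genes. It was low throughout, at 1.94, 1.66, and 2.17 TPM against 0.991, 1.16, and 1.02 TPM (−0.80, SE 0.22), and the median of the list was −0.01, with a range of −0.09 to 0.06 without each library in turn. None of 15 cadherin genes and none of 52 clustered protocadherin genes was called.

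Among 32 tested *Hox* genes 1 was lower and 1 higher, against 0.411% and 0.419% of protein-coding genes. The median was 0.06 and ranged from −0.02 to 0.13 without each library in turn. *Hoxc11*, a gene of the lumbar level, stood at 9.11, 8.54, and 12.9 TPM in the Het and at 4.405, 5.76, and 7.48 TPM in the KO (−0.79, SE 0.22). Its neighbours in the lumbar code, *Hoxd11* (−0.49, SE 0.15, without overlap), *Hoxc10* (−0.22, SE 0.22) and *Hoxd10* (−0.14, SE 0.20), were not called. *Hoxa3*, a gene of rostral levels, was higher at 8.27, 7.47, and 7.64 TPM against 13.1, 9.22, and 13.7 TPM (0.60, SE 0.16), and its call was lost without KO replicate 3 and in the fit of all 12 libraries. *Hoxb9* gave 0.39 (SE 0.11), without overlap and not called.

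Other lower genes of small p were *Slc35f2*, a member of the solute carrier family (−0.81), *A730046J19Rik* on the X chromosome (−0.73), *Fam135b* (−0.61), *Dynlt1b*, a dynein light chain (−0.56), *Lix1* (−0.54), and *Tmem100* (−0.69). *Dusp2*, a phosphatase of MAP kinases (−0.71), *Fgd5*, an exchange factor of endothelium (−0.54), *Stx3*, a syntaxin (−0.84), and *Syt3*, a synaptotagmin whose groups overlapped (−0.59), were lower too. The other lower genes included the metabolic enzymes *Khk* (−0.83), *Ephx1* (−0.76), *Far2* (−0.53), and *Gstm4* (−0.59), all of them below 5 TPM in every library.

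The 30 tested cell cycle genes were all positive, whereas 53.9% of protein-coding genes were negative. Their median log2 fold change was 0.35, and none reached the fold threshold, with *Mki67* the largest at 0.48 (SE 0.16). In 10 of them all KO libraries lay above all Het libraries, against 4.2% of protein-coding genes. *Top2a*, a topoisomerase of dividing cells, stood at 81.2, 110, and 112 TPM in the Het and at 113, 143, and 156 TPM in the KO (0.44, SE 0.15). *Ube2c*, a ubiquitin-conjugating enzyme of mitosis, stood at 24.4, 26.2, and 21.4 TPM against 30.4, 31.9, and 33.2 TPM (0.41, SE 0.09). The summed level of the list was 884, 1091, and 1153 TPM in the Het and 1100, 1369, and 1460 TPM in the KO. KO replicate 1 thus lay within the Het range, and Het replicate 1 was the lowest library. Without Het replicate 1 the median was 0.22, and at the brachial level it was 0.04. Some higher genes outside the list were picked out after their values were seen, and all of them but *Depdc1b* lost their calls without Het replicate 1. *Clspn*, the checkpoint mediator claspin, stood at 4.57, 5.37, and 5.04 TPM against 6.35, 7.97, and 7.97 TPM (0.56, SE 0.14). *Espl1*, separase, gave 0.52 (SE 0.15), *Depdc1b* 0.76 (SE 0.22), *Cenpk*, a kinetochore protein, 0.55, *Kif14*, a mitotic kinesin, 0.63, *Tcf19* 0.52, *Iqgap3* 0.50, and *Cdca2* 0.56. The transcription factors *E2f8* (1.09, 1.07, and 1.28 TPM against 1.77, 1.68, and 1.83 TPM; 0.58, SE 0.22) and *E2f1* (0.70, SE 0.27, overlapping) were higher too.

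Replication-dependent histone genes are expressed in S phase. Of 70 tested histone genes on the list 8 were higher (against 0.419% of protein-coding genes), none was lower, 66 were positive (53.9% of protein-coding genes were negative), and the median was 0.36. In 20 of them all KO libraries lay above all Het libraries, against 4.2% of protein-coding genes. The summed level of all 98 listed histone genes, tested or not, was 22783, 29738, and 27685 TPM in the Het and 28859, 35975, and 37016 TPM in the KO. KO replicate 1 thus again lay within the Het range. Without Het replicate 1 the median was 0.24, and at the brachial level it was −0.09. Histone genes share long stretches of sequence, so the value of a single gene is uncertain. The largest differences were those of *H2ac18* (chromosome 3, 96245497 to 96246052) and *H2ac19* (chromosome 3, 96239779 to 96240374), a near-identical pair of H2A genes that are transcribed away from each other. *H2ac18* stood at 407, 256, and 228 TPM against 489, 679.7, and 638 TPM (1.05, SE 0.22), and *H2ac19* at 379, 231, and 198 TPM against 450.4, 629.8, and 590.1 TPM (1.09, SE 0.23). At the brachial level the same pair varied within genotypes, with *H2ac18* at 639, 143, and 179 TPM in the Het and at 406, 120, and 346 TPM in the KO. In the fit of all 12 libraries, which shares the spread of both levels, both genes lost their calls. The other 6 called histone genes were *H2bc15* (0.54, SE 0.14), *H2ac22*, *H2bc9*, *H2bc11*, *H2bc1*, and *H4c18*, all on chromosome 13. All 6 lost their calls without Het replicate 1, whereas *H2ac18* and *H2ac19* kept theirs without each library. The groups overlapped for *H2ac22*, *H2bc11* and *H2bc1*. *H4f16*, a histone H4 gene on chromosome 6 that the list did not hold, was higher as well (0.57, SE 0.22), and its call was lost without Het replicate 1, KO replicate 1 or KO replicate 2.

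The promoters of the leading histone genes are shown because CCAAT elements were common among the tested histone genes. The RefSeq promoter table of GRCm38.p6 held windows of 250 bases before to 50 bases after the start for 39 of the 51 lower and 43 of the 52 higher genes. The 250 bases before the start of 3 histone genes are given 5′ to 3′ along the gene, with each CCAAT element (CCAAT or its reverse complement ATTGG) in capitals.
H2ac18, chr3:96245247-96245496, plus strand: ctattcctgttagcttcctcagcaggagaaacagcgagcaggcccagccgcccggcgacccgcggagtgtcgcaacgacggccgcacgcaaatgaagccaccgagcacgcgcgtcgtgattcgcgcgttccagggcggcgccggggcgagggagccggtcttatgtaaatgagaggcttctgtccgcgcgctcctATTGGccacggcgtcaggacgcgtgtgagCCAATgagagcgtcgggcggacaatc
H2ac19, chr3:96240375-96240624, minus strand: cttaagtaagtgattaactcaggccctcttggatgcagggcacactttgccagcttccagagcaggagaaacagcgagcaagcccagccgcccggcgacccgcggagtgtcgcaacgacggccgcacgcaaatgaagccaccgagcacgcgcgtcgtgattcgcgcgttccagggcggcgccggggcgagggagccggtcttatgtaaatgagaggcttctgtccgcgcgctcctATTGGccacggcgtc
H2bc15, chr13:21753826-21754075, plus strand: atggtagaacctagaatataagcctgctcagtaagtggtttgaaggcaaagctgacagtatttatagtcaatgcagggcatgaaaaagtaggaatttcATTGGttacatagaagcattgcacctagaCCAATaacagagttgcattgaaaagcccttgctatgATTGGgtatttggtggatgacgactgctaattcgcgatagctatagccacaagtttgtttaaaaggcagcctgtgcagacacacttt
The windows of *H2ac18* and *H2ac19* shared a run of 169 identical bases, so the pair is alike beyond the coding sequence. Over the full windows and both strands, CCAAT was present in 7 of the 8 called histone genes, in 54 of 64 tested histone genes (84.4%), in 4388 of 9959 tested protein-coding genes (44.1%), and in 37.4% of all 32851 windows. An E2F motif (TTTSSCGC, S being C or G) was present in 2 of the 8 called histone genes and in 10 of 64 tested histone genes (15.6%). It was present in 3 of the 43 higher and 1 of the 39 lower genes with a window, against 4.81% of tested protein-coding genes. The homeodomain core TAATTA was present in 1 of the 39 lower genes with a window (*Hrk*) and in 2 of the 43 higher genes, against 3.18% of tested protein-coding genes with a window (5.29% of all windows). These matches describe letters in the windows and not binding.

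**Figure D3:**
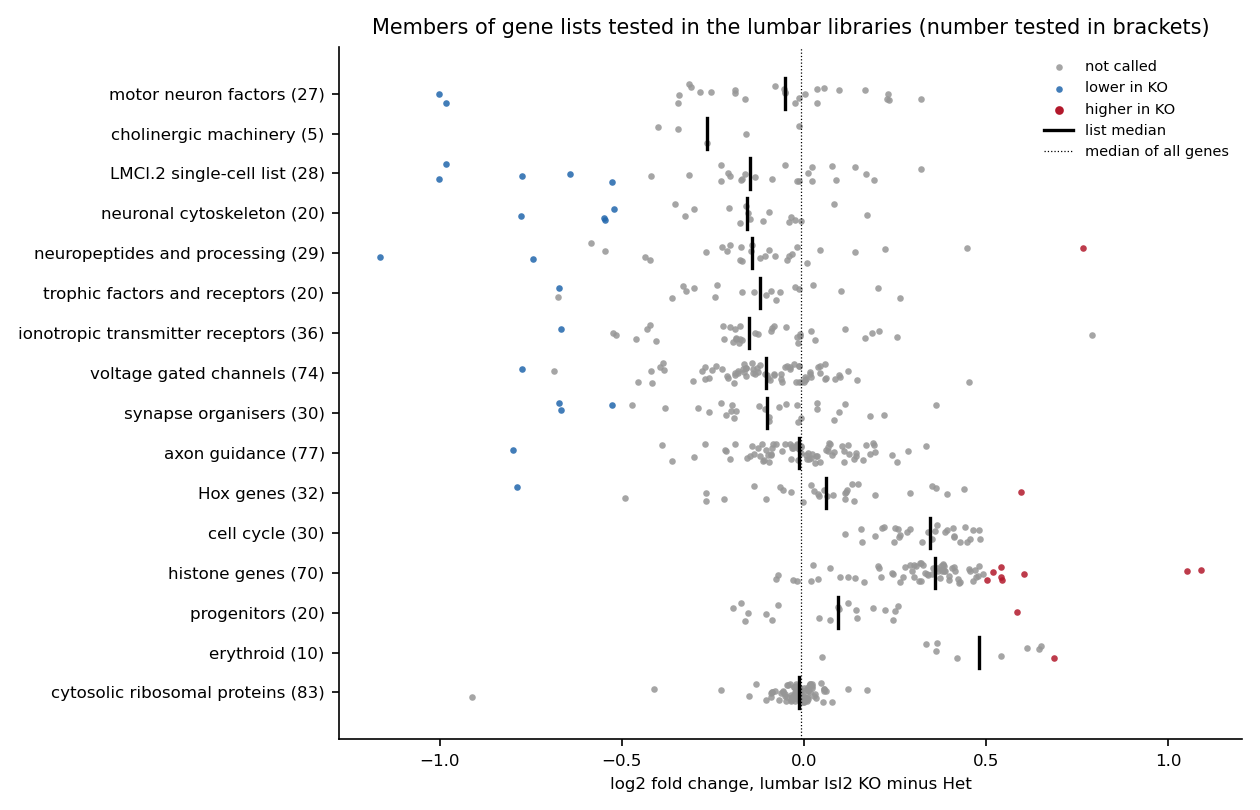
Log2 fold change (horizontal axis, lumbar KO minus Het) of each tested member of 16 gene lists, 1 point per gene, with the number tested in brackets, black bars at list medians and a dotted line at the median of all genes. Blue and red points are called lower and higher genes. The cell cycle, histone and erythroid lists sit to the right, while the cytosolic ribosomal protein list centres on the dotted line.

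Markers of other cell types that the dissection could hold were read in the same way. Of 20 tested progenitor genes 1 was higher (against 0.419% of protein-coding genes), *Sox3*, whose groups overlapped (0.58, SE 0.20). The summed level of the whole list, tested or not, was 2570 to 3015 TPM in the Het and 2683 to 2876 TPM in the KO. *Sox2*, a progenitor transcription factor, stood at 80.2, 91.4, and 84.98 TPM against 101, 101, and 96.3 TPM (0.22, SE 0.07, not called). All 10 tested erythroid genes were positive, whereas 53.9% of protein-coding genes were negative, and their median was 0.48. The embryonic globin *Hba-x* was the 1 called (0.69, SE 0.28, overlapping), against 0.419% of protein-coding genes called higher. The summed level of the whole erythroid list, tested or not, was 2333, 3740, and 3638 TPM in the Het and 3042, 4847, and 4886 TPM in the KO. Without Het replicate 1 the median was 0.21 and without KO replicate 1 it was 0.75. At the brachial level the median was 0.485, and none of the 10 was negative. Het replicate 1 and KO replicate 1 were the lowest of their group in the cell cycle, histone and erythroid sums alike. The part of blood and of dividing cells in the higher genes was not tested. The sensory ganglion markers summed to 176 to 181 TPM in the Het and 155 to 164 TPM in the KO, none of 10 was called, and 2 of the 18 listed markers were at 0 in every library. In that list the largest decreases were those of *Isl1*, which MNs share (61.6 against 49.9 TPM as group means), and *Shox2* (28.0 against 22.5 TPM), both overlapping. The dorsal interneuron list held 1 higher gene of 16 (against 0.419% of protein-coding genes), *Ptf1a*, a bHLH factor of inhibitory dorsal neurons. It stood at 1.64, 2.46, and 1.82 TPM against 3.70, 2.67, and 4.27 TPM (0.81, SE 0.24), and its call was lost in the fit of all 12 libraries. No gene of the ventral interneuron, floor plate, Schwann cell and crest, mesenchyme, microglia or skeletal muscle lists was called. Of 15 endothelial genes 1 (*Fgd5*) was lower, against 0.411% of protein-coding genes.

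**Figure D4:**
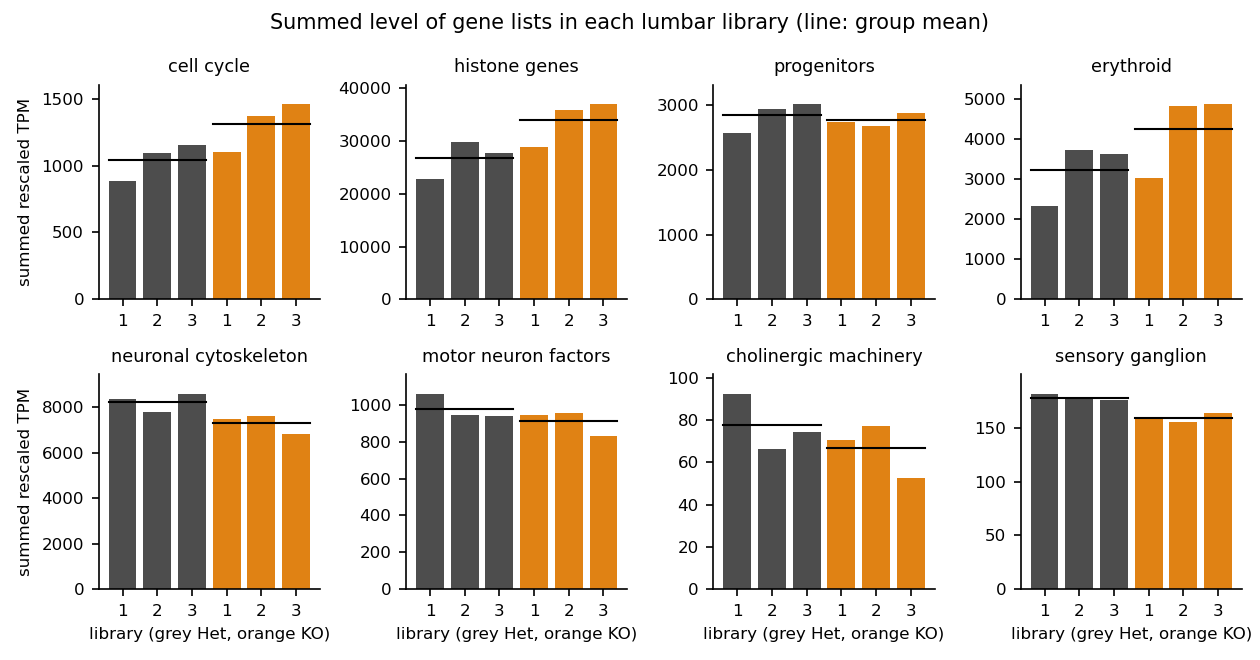
Summed rescaled TPM (vertical axis, from 0) of all members of 8 gene lists, tested or not, in each of the 6 lumbar libraries, with grey bars for Het, orange bars for KO, and a line at each group mean. In the cell cycle, histone and erythroid panels replicate 1 is the lowest bar of both groups, and in the sensory ganglion panel the groups do not overlap.

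The remaining higher protein-coding genes did not share a list. *Mme*, the peptidase neprilysin that cleaves neuropeptides at the cell surface, was the higher gene of smallest p, at 1.23, 1.15, and 1.33 TPM in the Het and at 3.75, 2.89, and 2.99 TPM in the KO (1.303, SE 0.20, 95% interval 0.85 to 1.75). Every KO library held more than 2 TPM and every Het library less. *Agmo*, an enzyme that cleaves ether lipids (0.70, SE 0.20), *Septin1*, a cytoskeletal GTPase (0.82, SE 0.25), *Cnksr3*, a signalling scaffold (0.57, SE 0.17), and *Gm21992* (1.13, SE 0.30) followed, all below 5 TPM. *Mme*, *Agmo*, *Septin1* and *Cnksr3* kept their calls without each library in turn. *Gli3*, a mediator of Hedgehog signalling (0.74, SE 0.31), overlapped between the groups, and *Rsc1a1* and *Tssk6* were called through 1 and 2 libraries of high value.

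*Isl2* lies on chromosome 9, where the KO and Het chromosomes can also differ in the DNA flanking the mutated allele. Of 275 tested protein-coding genes within 20 Mb of *Isl2*, 5 were called (1.82%, against 0.83% of all protein-coding genes), *Slc35f2*, *Calml4*, *Megf11* and *Anxa2* lower and *Fbxl22* higher. Within 10 Mb it was 3 of 150 (2%). *Slc35f2* was the nearest, 1.75 Mb away, at 6.73, 5.81, and 5.95 TPM against 3.66, 3.10, and 3.67 TPM. Alleles linked to the mutated locus and loss of *Isl2* cannot be told apart for these genes.

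The brachial libraries of the same series allowed the lumbar differences to be set against those at forelimb level. These genes were chosen on their lumbar values, so smaller brachial values follow in part from that choice. At the brachial level lists with no called lumbar member were shifted too, with a median of −0.27 for the cytosolic ribosomal proteins and 0.32 for the clustered protocadherins, so brachial medians are given as values alone. No gene (0%) had a lumbar effect that differed from the brachial one at an adjusted p of 0.05 (limma interaction over 14972 genes), and 674 genes (4.5%) had an unadjusted p under 0.05. That number was 337 without lumbar Het replicate 1 and 2016 without brachial KO replicate 1. Of the 51 lower protein-coding genes, 6 were lower at the brachial level too (11.8%, against 0.366% of all protein-coding genes): *Uts2b*, *Slc35f2*, *Ntf3*, *E130311K13Rik*, *Uts2* and *Tmsb15b1*. These brachial calls come from the fit of all 12 libraries, in which *Uts2* (−0.63, SE 0.48) and *Tmsb15b1* (−0.55, SE 0.49) were not called at the lumbar level. Brachial *Uts2* was between 0 and 0.697 TPM, and brachial *Tmsb15b1* reached 11.1 TPM in 1 Het library and at most 2.57 TPM in the others. *Uts2b* fell at both levels, with 25.2, 25.03, and 25.9 TPM in brachial Het and 12.4, 11.7, and 11.4 TPM in brachial KO libraries (−1.09, SE 0.09), and the difference between levels was −0.08 (SE 0.13), short of the threshold. *Kcnab1* had the smallest p of all genes for the difference. Brachial Het libraries held 6.13, 7.33, and 6.22 TPM of it and brachial KO libraries 7.29, 8.12, and 9.81 TPM (0.35, SE 0.13), which gave a lumbar minus brachial difference of −1.12 (SE 0.19, adjusted p = 0.639 in limma). *Etv4* stood at 30.1, 26.4, and 27.1 TPM in brachial Het and at 22.3, 20.5, and 20.5 TPM in brachial KO libraries (−0.40, SE 0.17), and its difference of −0.61 (SE 0.25) did not pass (adjusted p = 0.789 in limma). The same held for *C1ql3* (difference −0.53, SE 0.16) and *Sema3e* (−0.85, SE 0.25). *Hoxc11* was listed at 0 in all 6 brachial libraries. Among the 52 higher genes, *Agmo*, *Ctdsp1* and *Kel* were higher at the brachial level too, where 2.08% of all protein-coding genes were higher. *Kel* was not called at the lumbar level in the fit of all 12 libraries. *Mt1*, a metallothionein, was higher at the lumbar level (0.50) and lower at the brachial level (−0.71, SE 0.19), with a difference of 1.21 (SE 0.27, adjusted p = 0.789 in limma).

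Small RNA genes were read apart because the libraries were made from total RNA after removal of ribosomal RNA, without size selection for mature small RNAs, so a miRNA locus mostly collects fragments of precursor or host transcripts. By type, 6 of 215 miRNA genes were lower and 13 higher, 13 of 286 snoRNA genes were lower and 17 higher, 5 of 102 snRNA genes were lower and 3 higher, and 1 of 107 tRNA genes was lower and 6 higher. Of the 65 called, 47 had groups that did not overlap, against 9.18% of all small RNA genes tested, a larger share that follows from the choice of called genes. Only 9 of the 25 lower and 15 of the 40 higher kept their call without each library in turn, and 20 and 31 with embryo sex as a term. The snoRNAs guide chemical modification of ribosomal RNA and are mostly processed from introns of host genes.

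The miRNA loci among the 6 lower and the 6 higher small RNA genes of smallest p are given with their mature sequences from the RefSeq table. The seed (bases 2 to 8) is in capitals, to show that these loci do not form a seed family. One value was measured per locus and none per arm. *Mir7682*, *Mir6944* and *Mir7026* were lower, and *Mir7224*, *Mir325* and *Mir6977* were higher.
miR-7682-5p: aGGCACGAcucuugccacagaaac
miR-6944-5p: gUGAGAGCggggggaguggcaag
miR-6944-3p: uAACUCUUcccuugugcccucag
miR-7026-5p: uUCUGAGAccaugggguauau
miR-7026-3p: uGUGCUUUcuggucuuggcuuag
miR-7224-5p: gGGUAGGCcccucagugaaga
miR-325-5p: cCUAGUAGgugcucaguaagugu
miR-325-3p: uUUAUUGAgcaccuccuaucaa
miR-6977-5p: gUGAGGCGcugugggcacggcuugg
miR-6977-3p: aAGGCGUUgccugacccugacc
Over all 19 called miRNA loci the table held 34 mature sequences with 34 different seeds, so no seed was shared between called loci. *Mir7682* stood at 1.997, 1.66, and 2.42 TPM in the Het and at 0.435, 0, and 0.381 TPM in the KO (−2.83, SE 0.63), a value that rests on the pseudocount since 1 library was at 0. *Mir325* stood at 0.761, 0.376, and 1.40 TPM against 3.02, 2.96, and 3.09 TPM (1.88, SE 0.39), and *Mir7224* at 0.482, 0.5001, and 0.785 TPM against 2.23, 1.82, and 2.67 TPM (1.77, SE 0.29). The 3 loci did not overlap between groups and were below 4 TPM in every library. *Mir17* (1.19, 1.11, and 2.59 TPM against 0.986, 0.423, and 0.581 TPM; −1.15, SE 0.42) and *Mir19b-1* (1.39, 2.297, and 1.54 TPM against 3.96, 1.96, and 4.91 TPM; 0.94, SE 0.35) come from one cluster on chromosome 14 and were called in opposite directions. *Mir17* lost its call without Het replicate 3, KO replicate 2 or KO replicate 3, and *Mir19b-1* without Het replicate 1, Het replicate 3, KO replicate 1 or KO replicate 3. Among RNAs with a role in RNA processing, *Rnu3a*, a U3 gene whose RNA acts in ribosomal RNA maturation, was higher at 39.2, 34.9, and 40.4 TPM against 61.2, 50.9, and 59.6 TPM (0.58, SE 0.10). *Rnu7*, the U7 RNA that processes histone transcripts, was called higher through KO replicates 1 and 2, with 2.93, 2.45, and 2.47 TPM against 5.79, 7.09, and 2.55 TPM (0.83, overlapping).

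Of the 65 called small RNA genes, 41 lay within a tested gene on the same strand, 15 of the 25 lower and 26 of the 40 higher, a share like the 63% of all 741. None of these host genes was called, nor was any host of the 467 tested small RNA genes that lay within a tested gene. The small RNA genes were chosen for their fold changes and the hosts were not, so smaller host values follow in part from that choice. The hosts of lower small RNAs had log2 fold changes between −0.24 and 0.32 and the hosts of higher ones between −0.13 and 0.19. *Snhg14*, the long host transcript of the imprinted snoRNA clusters on chromosome 7 (−0.08), held 39 tested snoRNA genes, of which 4 were lower (*Gm24518*, *Gm24618*, *Gm25462* and *Gm26097*) and 1 was higher (*Gm26488*), against 3.37% and 5.4% of small RNA genes. Each of the 5 calls was lost in 2 to 4 of the 6 fits that left out 1 library, and those of *Gm24618* and *Gm26488* also with embryo sex as a term.

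Among the 1612 other genes, 11 lncRNA genes were lower and 8 higher of 736 tested. Of all called genes of this class, 3 of the 19 lower and 4 of the 18 higher kept their call without each library in turn. *2810032G03Rik* had the smallest p, at 4.15, 4.48, and 4.79 TPM in the Het and at 3.05, 3.195, and 2.57 TPM in the KO (−0.59, SE 0.15). *Gm8098* (−0.996, SE 0.26) and the pseudogene *Bambi-ps1* (−0.70, SE 0.22) were lower without overlap. *2810032G03Rik* lost its call without KO replicate 3, *Bambi-ps1* without Het replicate 2, and *Gm8098* when read from coverage (−0.41). *4930405O22Rik* (1.46, SE 0.40), *Gm8850* (0.88, SE 0.23), *Gm15452* (0.80, SE 0.22), and *LOC102631979* (0.55, SE 0.16) were higher without overlap. *LOC102631979* lost its call without Het replicate 3 or KO replicate 3, and *Gm8850* in the fit of all 12 libraries. Pseudogene values may include reads of their parent genes.

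**Figure D5:**
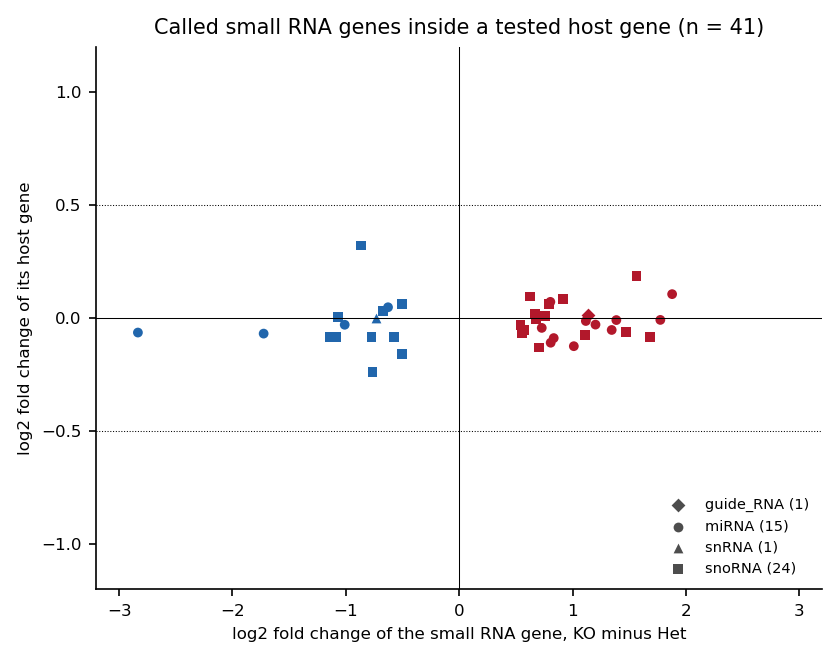
Log2 fold change of 41 called small RNA genes (horizontal axis) against that of the gene they lie in (vertical axis, same strand), with marker shapes for the RNA type and dotted lines at 0.5 in size. The host genes stay between −0.24 and 0.32 and the small RNAs extend to −2.83 and 1.88. Only the small RNAs were chosen for a fold change beyond 0.5.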

How the data were processed

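Total RNA libraries (ribosomal RNA removed, stranded kit) of E12.5 ventral cord were sequenced by the authors, who named FastQC 0.11.7, Trimmomatic 0.38, Bowtie2 2.3.4.1, HISAT2 2.1.0 and StringTie 2.1.3b with the mm10 genome in their processing notes. The deposited tables, 1 per library, give for each gene the coverage, FPKM and TPM values that the authors estimated with StringTie. They hold no read counts, so no count model was run. FPKM values as deposited were not used in a test, and coverage served as an alternative.

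TPM was divided by median-of-ratios size factors. Genes with a mean deposited TPM of at least 1 over the 6 lumbar libraries were tested with limma 3.58.1 (R 4.3.3, trend) on log2(TPM + 0.1), Het against KO, with Benjamini-Hochberg adjustment. Fold changes on this scale understate those of low genes. Gene names, types and promoters came from RefSeq by gene identifier (45679 of 45777 matched). An interaction fit of all 12 libraries compared the lumbar and brachial effects. Other work used Python 3.11.15, pandas 2.3.3, numpy 2.4.6, scipy 1.17.1 and matplotlib 3.10.9.

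The samples are labelled as separate replicates of each genotype, and the study states 3 animals per genotype. Aligned bases per library follow from dividing coverage by FPKM for genes with a single transcript. This depth sets a limit mainly for genes near 1 TPM. Named genes were *Isl2*, a set of genes the study names for the lumbar cord, list members (called first, otherwise of highest mean TPM), the 15 lower and 15 higher protein-coding genes of smallest p without overlap, 6 and 6 small RNAs, and 5 and 5 other genes. Some further called genes were named after their values were seen. The members, lists and tests were chosen with earlier results of these data known. The values of 1 called gene are not reported here.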

Additional observations from a re-analysis of the deposited data

How the results depend on the processing

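The 3 libraries per group, the unadjusted threshold and low TPM limit these counts. No called gene among the 97 named ones changed sign under a setting in which it was tested (62 of 97 under the filter at mean TPM 5). *Mnx1*, *Lhx3*, *Sema5a*, *Hoxd10* and *Slc18a3*, none of them called, did, as did the medians of 18 of 36 gene lists without 1 library or another. With pseudocount 1, 56 genes were lower and 72 higher (protein-coding 28 and 25). With a filter at mean TPM 5, 33 were lower and 32 higher (protein-coding 21 and 20, small RNA 7 and 10), and with no filter 286 and 334 (131 and 105, small RNA 54 and 100), since other numbers of genes were tested. A filter at mean TPM 0.5 gave 64 higher small RNA genes. With embryo sex as a term, chosen after seeing the data, 166 genes were lower, 101 of them protein-coding, and 65 protein-coding genes were higher. With all 12 libraries 33 protein-coding genes were higher, and the cause was not tested. At adjusted p under 0.05, 1 gene passed with the filter at 5 (*Uts2b*) and 2 with all 12 libraries, against 0. For the difference between levels, 1 passed with no filter (*Mir7661*).

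Without each library in turn, counts ranged from 80 to 144 (lower), 107 to 220 (higher), 42 to 85 and 42 to 152 (protein-coding lower and higher), 25 to 32 and 34 to 64 (small RNA lower and higher). At adjusted p under 0.05 they ranged from 0 to 4, with *Gm6152* and *Gm35144* without Het replicate 3, *Gm53* without KO replicate 1, *Scg5* without KO replicate 2, and *Uts2b*, *Cartpt*, *Rtraf-ps* and *Gm6937* without KO replicate 3. The difference between levels ranged from 0 to 1, with 1 gene without Brachial Het replicate 3, KO replicate 1 or KO replicate 2. The *Isl2* log2 fold change was −0.72 from coverage and ranged from −0.43 to −0.26 without each library.

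No sign that the replicate numbers pair the libraries was seen, with same-number correlations of deviations of 0.155, −0.292, and −0.125. Pairs of different number ranged from −0.284 to 0.341. With 3 libraries per group these values cannot exclude a shared litter or batch. With the replicate block the difference between levels had 1118 genes at an unadjusted p under 0.05, against 674, and 94 genes were lower and 117 higher (protein-coding 48 and 52, small RNA 29 and 51).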

Other observations

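Some genes were called through libraries at 1 of 2 levels. *Gm35144* stood at 22.9, 25.7, and 1.78 TPM in the Het and at 0.813, 1.3, and 1 TPM in the KO. *Gm6152* stood at 8.86, 9.65, and 0 TPM against 0.0317, 0, and 0.0507 TPM, and *Gm7075* at 3.08, 3.32, and 0.0794 TPM against 0, 0.201, and 0.102 TPM. In these 3 pseudogenes Het replicates 1 and 2 were high. *Rtraf-ps* stood at 0.818, 1.08, and 0.959 TPM against 12.2, 11.7, and 0.928 TPM, and *Gm6937* at 6.26, 8.12, and 5.68 TPM against 45.6, 48.9, and 5.48 TPM. *Tssk6* was at 0.122, 0.266, and 0.075 TPM against 3.92, 3.66, and 0.0925 TPM. Here KO replicates 1 and 2 were high, and KO replicate 3 stood with the Het libraries.

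By *Xist* and Y-linked genes the lumbar Het libraries held 2 females and 1 male and the lumbar KO libraries 1 female and 2 males. At the brachial level Het and KO libraries both held 1 female and 2 males. The lumbar and brachial Het libraries thus cannot all come from the same 3 animals.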
